A study of Oryctolagus cuniculus with 15 samples.

Results

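The ADAM and ADAMTS proteases form a family of zinc metalloproteases, and 41 genes of rabbit corneal keratocytes were taken as its members because their symbol was ADAM, ADAMTS or ADAMTSL followed by a number, or ADAMDEC1. These were 18 ADAM genes, 19 ADAMTS genes, 3 ADAMTSL genes and ADAMDEC1, out of 23428 genes in the deposited tables. Levels are in FPKM, which are fragments scaled by gene length and by a divisor for each library. With a gene called expressed when its mean reached 1 FPKM in at least 1 condition, 25 members were expressed. That was 61.0% of the members against 50.1% of all genes. The rule for members used gene symbols and no measured difference between conditions, but it was set with earlier results of these data known.

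RNA was sequenced from normal keratocytes of New Zealand white rabbits at first passage, after 6 days in serum-free medium, with 3 libraries in each of 5 conditions. Cells of 2DC and 2DC_L lay on dishes coated with bovine type I collagen, cells of 2DF lay on top of a fibrillar collagen matrix, and cells of 3DF were embedded in that matrix with 100000 cells in each. The 3DF_50 matrices held 50000 cells, and 2DC_L dishes were lysed directly whereas 2DC dishes, like the matrices, first went through digestion medium. The study states that effective cell density was lower in 3D than in 2D, so dimension and density differ together between these cultures. Cells of the matrices were also pelleted before lysis, which cannot be told apart from the matrix itself, and several dishes or matrices were pooled for each library. The 3 libraries of a condition came from separate experiments, and the rabbits behind each are not given in the sources used here.

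ADAM proteins are mostly membrane-anchored proteases that cut other membrane proteins near the cell surface and release growth factors, cytokines and adhesion molecules, and several of them lack the catalytic motif. ADAMTS proteins are secreted, bind the matrix through thrombospondin repeats, and include enzymes that trim procollagens or cut the large proteoglycans. ADAMTSL proteins share the ancillary domains of ADAMTS enzymes without the protease domain. The deposited annotation lists domains for 36 of the 41 members and a protease domain for 34 of these. In the cornea the stroma that keratocytes build is mainly collagen fibrils, which form from procollagens, and proteoglycans.

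Between 14626982 and 31804255 fragments were counted per library. The 7 keratocyte markers found in the table, KERA, LUM, DCN and OGN among them, all had means of at least 1 FPKM in every condition. Markers of other cells also differed between conditions. The 8 corneal epithelial markers in the table summed to 0.138 to 1.12 FPKM for 2DC, 0.767 to 5.83 for 2DF, 7.54 to 12.8 for 3DF and 0.0373 to 5.83 in 3DF_50, and KRT12 was at 0 in every 2DC and 2DC_L library. The 4 corneal endothelial markers, mostly COL8A2, summed to 322 to 474 FPKM in 2DC, 402 to 485 in 2DF, 191 to 260 in 3DF and 135 to 163 in 3DF_50. The 4 vascular markers, mostly KDR, summed to 117 to 119 FPKM in 3DF, 32.9 to 62.4 in 2DC, 51.1 to 67.7 in 2DF and 49.8 to 75.4 in 3DF_50. Leukocyte markers summed to 2.26 to 3.08 FPKM in 3DF and 2.68 to 5.43 in 2DC, and Schwann cell markers to 11.3 to 19.6 and 11.1 to 12.5. The study lists COL8A2 and the vascular marker CDH5 among genes that differed between its keratocyte cultures. In bulk RNA, fewer cells of a type, less RNA per cell and a change of these genes in the keratocytes themselves cannot be told apart. The part of other cells in the results below was not tested.

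Of the 41 members, 16 reached 1 FPKM in every condition and 10 reached 10 FPKM in at least 1. The summed FPKM of the members was 381 ± 20.7 on 2DC and 396 ± 33.9 on 2DC_L dishes (mean ± SD, n = 3, as for all means that follow). It was lower with matrices, at 284 ± 24.8 for 2DF, 239.5 ± 2.38 for 3DF and 195 ± 5.89 for 3DF_50. ADAMTS2 alone held 29.0% of this sum in 2DC and 19.1% in 3DF_50. The share of ADAMTS5 was 11.4% on 2DC dishes, 3.08% for 2DF, 6.27% for 3DF and 2.79% for 3DF_50. Among the 25 expressed members the highest mean was in 2DC_L for 11, in 2DF for 5, in 2DC for 4, in 3DF for 3 and in 3DF_50 for 2. The lowest mean was in 3DF_50 for 16 of them. Such counts were not computed over all expressed genes, so they are not shown to be particular to the members.

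**Figure D1:**
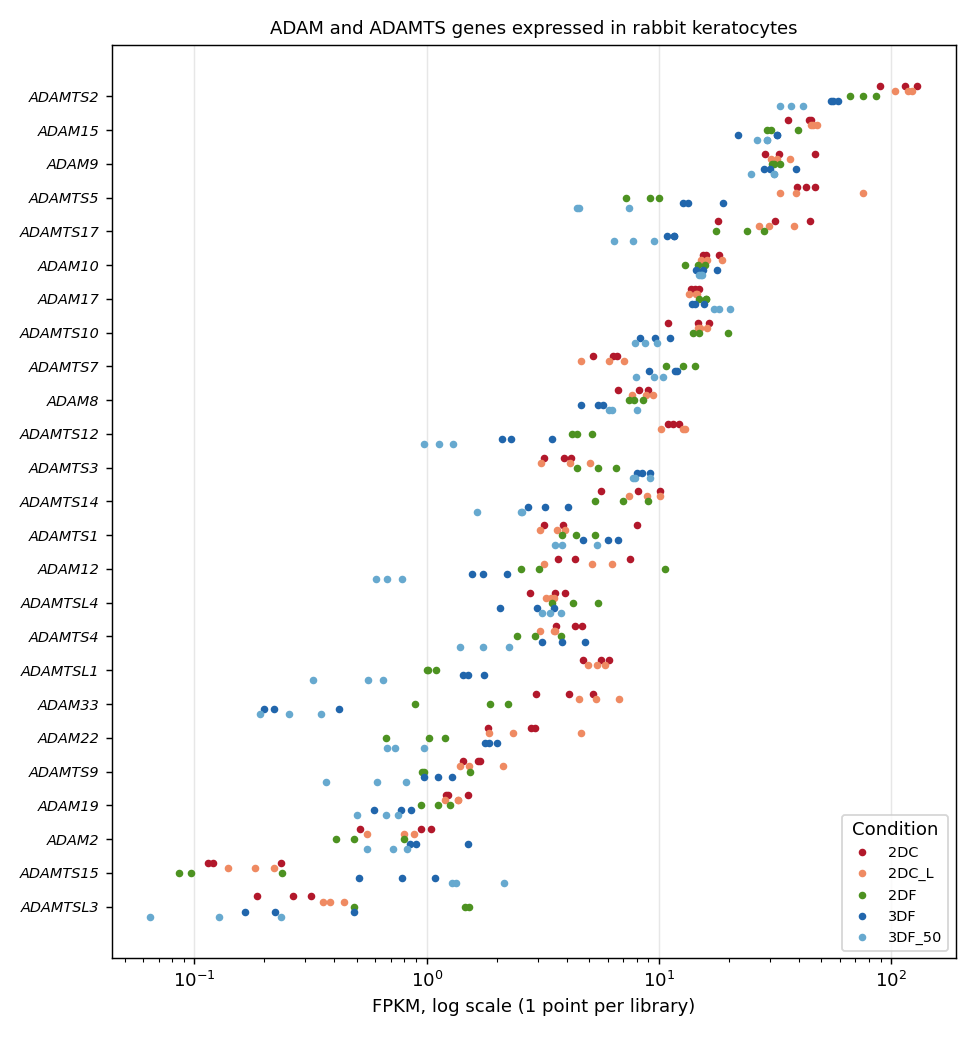
FPKM of the 25 expressed members on a log scale, 1 point per library, coloured by condition and ordered by the mean over conditions. ADAMTS2 is the highest at up to 129 FPKM, ADAM10 libraries of all conditions sit together between 13.0 and 18.7 FPKM, and ADAMTS12 and ADAM33 spread over more than 1 unit of the log axis.

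A differentially expressed gene (DEG) was a gene whose adjusted p in edgeR did not exceed 0.05 and whose log2 fold change was 1 or more in either direction. Fold changes are the first condition over the second, on the log2 scale and with an SE. That SE was computed from the fold change and the F statistic of its edgeR test, so it is not a separate estimate. An F test in edgeR over the 5 conditions could be run on the 30 members that passed the count filter, and 22 of these differed, whereas 41.8% of all genes tested did. In the pairwise tests 18 members were a DEG in at least 1 of the 10 comparisons, and 13 in at least 1 of the comparisons between 2DC, 2DF and 3DF. The share of all genes called in at least 1 of these comparisons was not computed, so these 2 counts are a description only. Comparisons share conditions, so their counts are not independent of each other.

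In 3DF vs. 2DC, which changes the dimension, the structure and the stiffness of the substrate together with the effective cell density, 10 of 30 members tested were DEGs, 2 higher and 8 lower, where 7.56% of all genes were DEGs (3.24% higher, 4.32% lower). ADAM33, ADAMTS18, ADAMTS12, ADAMTSL1, ADAMTS5, ADAM12, ADAMTS17 and ADAMTS14 fell, and ADAMTS15 and ADAMTS3 rose. ADAMTS18 passed the count filter only through the coated dishes, where it was high, in each of its 6 calls. The member counts and medians of every comparison of a matrix with a coated dish include it and are not given without it. The median log2 fold change was -0.44 over the members tested and 0.01 over all genes. In 2DF vs. 2DC, fibrillar against coated collagen in 2D with stiffness differing too, 8 of 29 were DEGs, 2 higher and 6 lower, against 4.96% of all genes (2.04% higher, 2.93% lower), with a median of -0.18 over the members. In 3DF vs. 2DF, embedded against on top with effective cell density differing too, 5 of 27 were DEGs, 1 higher and 4 lower, against 3.78% of all genes (2.09% higher, 1.69% lower), with a median of -0.09 over the members. Scaling by library size only gave 2 higher and 3 lower in that comparison, with ADAM22 called and ADAMTS17 not, where it called 338 of all genes higher and 214 lower. In 3DF vs. 3DF_50 all 5 DEGs of 28 members tested were higher in 3DF, against 0.452% of all genes (0.316% higher, 0.135% lower). With the library-name prefix as a block, 2DF was estimated from replicate 1 alone, since no other condition shares the prefixes of its other libraries. That block left 9 members as DEGs in 3DF vs. 2DC, in a fit that called 1159 of all genes. The counts in 2DF vs. 2DC, 3DF vs. 2DF and 3DF vs. 3DF_50 were 0, in fits that called 16, 4 and 10 of all genes.

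**Figure D2:**
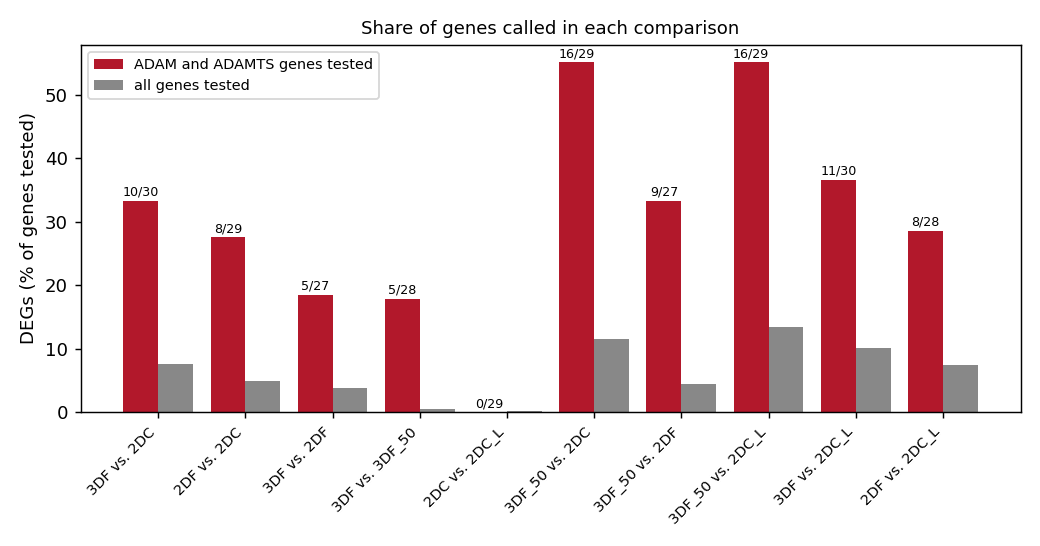
Bars show DEGs as a percentage of the ADAM and ADAMTS genes tested (red, with counts above) and of all genes tested (grey) in each of the 10 comparisons. The count is 16 of 29 for 3DF_50 against 2DC and against 2DC_L, and 0 of 29 for 2DC vs. 2DC_L. Counts for a matrix against a coated dish include ADAMTS18, which passed the count filter only through the coated dishes.

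**Figure D3:**
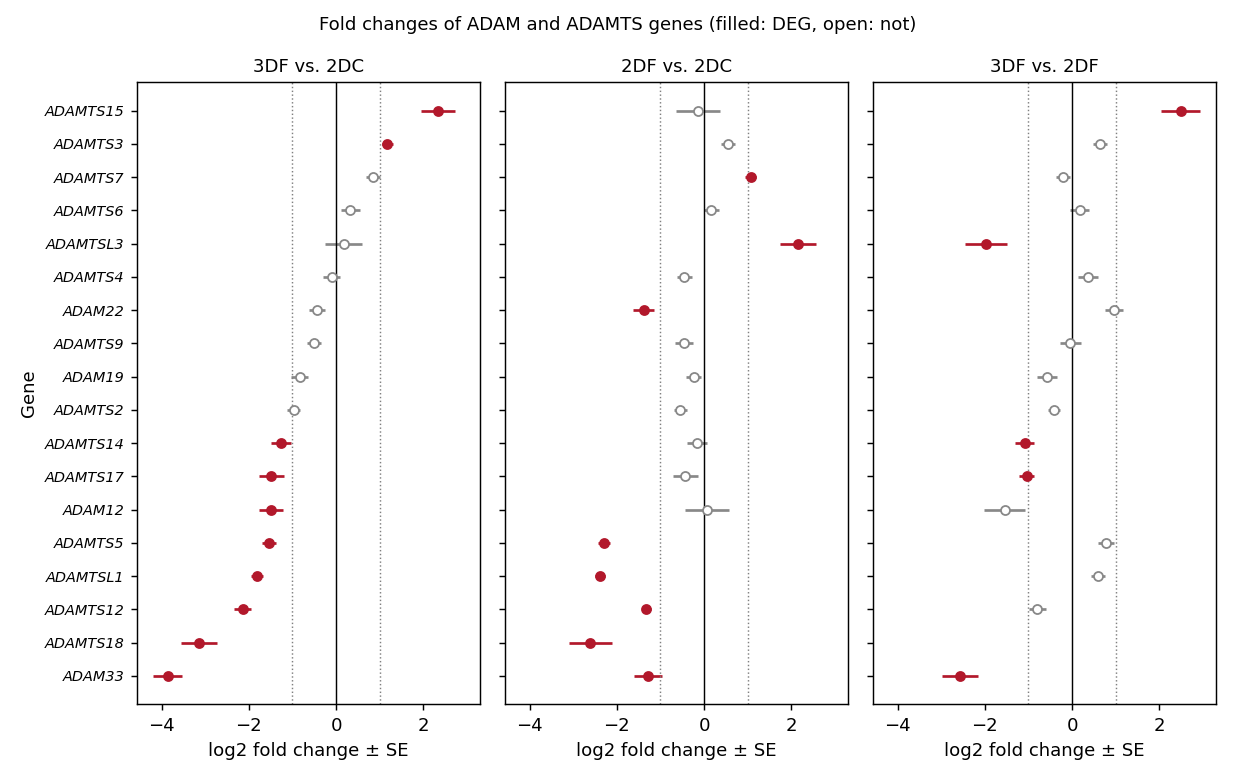
Log2 fold change ± SE of the 18 members that were DEGs in any of the 10 comparisons, in 1 panel for each of the 3 comparisons among 2DC, 2DF and 3DF. Filled red points are DEGs, open points are not, and dotted lines mark a log2 fold change of 1 in either direction, and ADAMTS15 and ADAMTS3 lie to the right in 3DF vs. 2DC and ADAM33 is farthest to the left at -3.86.

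Among the membrane-bound catalytic ADAMs 8 of 11 were expressed, and the general sheddases ADAM9, ADAM10 and ADAM17 were DEGs in none of the 10 comparisons. Together the catalytic ADAMs summed to 127 ± 7.21 FPKM on 2DC dishes, 111 ± 5.16 for 2DF, 99.9 ± 1.96 for 3DF and 99.4 ± 3.68 for 3DF_50. ADAM10, which releases Notch ectodomains and cadherins, was at 16.0, 15.4 and 18.1 FPKM in libraries of 2DC and 15.2, 16.0 and 18.7 in those of 2DC_L, against 15.8, 13.0 and 14.7 in 2DF, 17.7, 14.4 and 15.5 in 3DF and 15.3, 14.9 and 15.2 at the lower density of 3DF_50. Its log2 fold changes over the 10 comparisons lay between -0.19 ± 0.11 and 0.13 ± 0.14. The conditions overlapped, except that each 3DF_50 library was below each 2DC library. ADAM9 was at 38.9, 28.2 and 30.2 FPKM in 3DF and 24.8, 31.3 and 31.3 in 3DF_50, compared with 31.1, 30.7 and 33.3 in 2DF, 28.6, 33.0 and 47.0 on the dishes of 2DC and 30.3, 32.3 and 36.8 on those of 2DC_L, again with overlap, and its log2 fold changes lay between -0.31 ± 0.18 and 0.13 ± 0.16. Neither gene passed the test over the 5 conditions (adjusted p of 0.513 for ADAM10 and 0.561 for ADAM9).

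ADAM17, the TNF-alpha converting enzyme, was at 14.8, 13.8 and 14.3 FPKM in the 2DC and 14.5, 14.5 and 13.4 in the 2DC_L libraries, at 15.9, 15.9 and 14.8 with cells on the matrix (2DF) and, with cells inside it, at 13.9, 14.3 and 15.6 in 3DF and 18.1, 20.1 and 17.2 in 3DF_50. The 3DF_50 libraries were the highest and did not overlap any other condition. It differed among the 5 conditions (edgeR adjusted p = 0.00827), but its log2 fold change stayed at 0.39 ± 0.09 or less in size. ADAM15, an ADAM with an integrin-binding disintegrin domain, was at 45, 44.3 and 36.0 FPKM in libraries of 2DC and 46.1, 44.9 and 47.7 in those of 2DC_L, against 29.1, 39.6 and 30.2 in 2DF, 21.9, 32.3 and 32.2 in 3DF and 29.1, 26.5 and 29.0 at the lower density of 3DF_50. All 3DF and 3DF_50 libraries were below all 2DC libraries. The log2 fold change against 2DC was -0.54 ± 0.18, adjusted p = 0.0757 by edgeR for 3DF and -0.56 ± 0.10, adjusted p = 0.00233 by edgeR for 3DF_50. ADAM15 differed among the 5 conditions (edgeR adjusted p = 0.00208) but was a DEG in none of the 10 comparisons. ADAM8 ranged from 4.62 to 9.42 FPKM over the libraries and was lowest in 3DF, where -0.60 ± 0.16, adjusted p = 0.0340 by edgeR against 2DC missed the limit on the fold change.

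ADAM33, a catalytic ADAM of mesenchymal cells (oryCun2, as for all positions given, chr4:10549003-10560266, minus strand), had the largest fall of the expressed members in 3DF vs. 2DC. It was at 0.220, 0.421 and 0.199 FPKM in 3DF and 0.256, 0.351 and 0.191 in 3DF_50, compared with 0.887, 1.87 and 2.23 in 2DF, 2.95, 5.19 and 4.10 on the dishes of 2DC and 5.35, 4.50 and 6.71 on those of 2DC_L. The libraries formed steps, with both coated conditions above 2DF and 2DF above both 3D conditions without overlap. Against 2DC the log2 fold change was -3.86 ± 0.34, adjusted p = 0.000287 by edgeR for 3DF and -1.29 ± 0.32, adjusted p = 0.0285 by edgeR for 2DF, and 3DF was also below 2DF (-2.56 ± 0.41, adjusted p = 0.00602 by edgeR). The 2DF vs. 2DC call held in 3 of the 6 tests that left out 1 library and was lost without 2DC replicate 2, 2DF replicate 1 or 2DF replicate 2, whereas the calls for 3DF held in 6 of 6.

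ADAM12, known as meltrin alpha and expressed in activated mesenchymal cells (unplaced scaffold, bases 517847 to 844325, minus strand), was at 3.68, 4.33 and 7.49 FPKM in the 2DC and 6.30, 5.13 and 3.18 in the 2DC_L libraries, at 2.53, 3.03 and 10.6 with cells on the matrix (2DF) and, with cells inside it, at 2.21, 1.57 and 1.75 in 3DF and 0.676, 0.604 and 0.785 in 3DF_50. The 3D libraries lay below every 2D library, those of 3DF_50 lay below those of 3DF, and 2DF replicate 3 was far above the other 2DF libraries. It fell in 3DF vs. 2DC (-1.49 ± 0.27, adjusted p = 0.00789 by edgeR) and was higher in 3DF than in 3DF_50 (1.39 ± 0.20, adjusted p = 0.0318 by edgeR). In 3DF vs. 2DF the log2 fold change was -1.54 ± 0.47, adjusted p = 0.0887 by edgeR, and it was -0.59 without 2DF replicate 3. It was called there when no count filter was used or all 5 conditions were fitted together. The fit of all 5 conditions lost the ADAM12 call in 3DF vs. 3DF_50 (adjusted p = 0.0776 by edgeR), which held in 3 of 6 tests without 1 library. ADAM19, or meltrin beta (chr3:38917499-39008024, minus strand), was at 1.21, 1.24 and 1.5 FPKM in libraries of 2DC and 1.19, 1.36 and 1.36 in those of 2DC_L, against 1.12, 0.949 and 1.26 in 2DF, 0.859, 0.776 and 0.593 in 3DF and 0.751, 0.499 and 0.666 at the lower density of 3DF_50. Its 3D libraries were below its 2D libraries, and it was a DEG for 3DF_50 vs. 2DC (-1.04 ± 0.20, adjusted p = 0.00327 by edgeR) and for 3DF_50 vs. 2DC_L. These calls held in 4 of 6 and 3 of 6 tests without 1 library, the first being lost without 2DC replicate 3 or 3DF_50 replicate 2 and the second without 2DC_L replicate 2, 2DC_L replicate 3 or 3DF_50 replicate 2. Both were lost with scaling by library size only and with the prefix block.

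Of the 6 ADAMs without the catalytic motif 2 were expressed. ADAM22, a receptor for LGI proteins in neurons (chr10:40248933-40495429, minus strand), was at 2.00, 1.78 and 1.86 FPKM in 3DF and 0.726, 0.674 and 0.975 in 3DF_50, compared with 0.670, 1.2 and 1.03 in 2DF, 2.92, 2.82 and 1.83 on the dishes of 2DC and 2.35, 1.86 and 4.59 on those of 2DC_L. The 2DF and 3DF_50 libraries were low, and those of 3DF sat between them and the coated dishes, overlapping the latter. It fell in 2DF vs. 2DC (-1.38 ± 0.24, adjusted p = 0.00614 by edgeR) while 3DF vs. 2DC gave -0.44 ± 0.19, adjusted p = 0.157 by edgeR, and it was higher in 3DF than in 3DF_50 (1.22 ± 0.18, adjusted p = 0.0318 by edgeR). ADAM2, a sperm surface protein, reached 1.09 ± 0.370 FPKM in 3DF and 0.564 ± 0.208 in 2DF, and was not a DEG in any comparison.

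**Figure D4:**
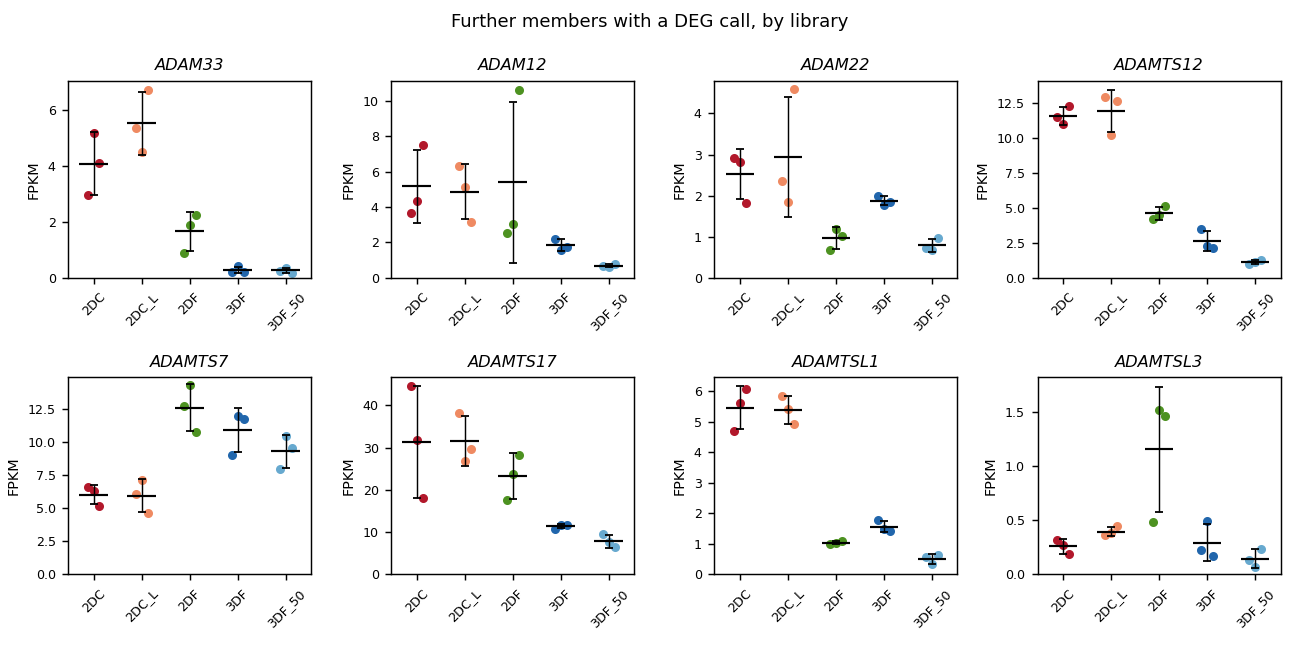
FPKM of ADAM33, ADAM12, ADAM22, ADAMTS12, ADAMTS7, ADAMTS17, ADAMTSL1 and ADAMTSL3, 1 point per library, with the mean (line) and SD (bar) of the 3 libraries of each condition. ADAMTS7 is higher in 2DF, 3DF and 3DF_50 than on coated dishes, and 2DF replicate 3 of ADAM12 stands at 10.6 FPKM above the other 2DF libraries.

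The procollagen N-proteinases ADAMTS2, ADAMTS3 and ADAMTS14, which remove the amino-terminal propeptide of fibrillar procollagens, moved in different directions. Their sum was 122.7 ± 18.2 FPKM on 2DC dishes, 88.6 ± 11 for 2DF, 68.7 ± 1.69 for 3DF and 47.8 ± 5.00 for 3DF_50. ADAMTS2, the main enzyme for type I procollagen (unplaced scaffold, bases 577794 to 802689, minus strand), was at 129, 114 and 89.6 FPKM in the 2DC and 122, 103 and 118 in the 2DC_L libraries, at 66.7, 75.4 and 86.1 with cells on the matrix (2DF) and, with cells inside it, at 55.2, 56.1 and 59.1 in 3DF and 41.8, 33.1 and 37.1 in 3DF_50. The conditions stood in the order coated, 2DF, 3DF, 3DF_50 without overlap between any of these. The log2 fold change of -0.98 ± 0.15, adjusted p = 0.00355 by edgeR in 3DF vs. 2DC missed the fold limit, which it passed without 2DC replicate 3 and without 3DF replicate 3, and it was a DEG in 3DF_50 vs. 2DC (-1.57 ± 0.14, adjusted p = 6.93e-05 by edgeR).

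ADAMTS14 (chr18:16319599-16393570, minus strand) was at 5.62, 8.09 and 10.1 FPKM in libraries of 2DC and 8.83, 10.1 and 7.42 in those of 2DC_L, against 5.27, 6.97 and 8.96 in 2DF, 2.72, 4.05 and 3.24 in 3DF and 2.57, 1.64 and 2.53 at the lower density of 3DF_50. The 3 kinds of 2D culture overlapped and both 3D conditions lay below them. It was a DEG against 2DC (-1.26 ± 0.23, adjusted p = 0.00878 by edgeR) and in 3DF vs. 2DF (-1.08 ± 0.22, adjusted p = 0.0171 by edgeR), the latter in 2 of 6 tests without 1 library and not without 2DF replicate 2, 2DF replicate 3, 3DF replicate 1 or 3DF replicate 3. ADAMTS3, which also activates the lymphatic growth factor VEGF-C (chr15:77518116-77838849, plus strand), was at 9.13, 8.44 and 8.06 FPKM in 3DF and 7.90, 7.69 and 9.18 in 3DF_50, compared with 5.47, 6.51 and 4.42 in 2DF, 3.89, 4.16 and 3.19 on the dishes of 2DC and 3.09, 4.13 and 5.06 on those of 2DC_L. Every 3D library was above every 2D library. ADAMTS3 rose in 3DF vs. 2DC (1.18 ± 0.13, adjusted p = 0.000802 by edgeR) and in 3DF_50 vs. 2DC (1.14 ± 0.12, adjusted p = 0.000122 by edgeR), while 2DF vs. 2DC gave 0.55 ± 0.15, adjusted p = 0.0458 by edgeR, under the fold limit.

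Of the 7 proteoglycanases, which cut aggrecan, versican and related proteoglycans, 5 were expressed. Their sum was 54.1 ± 6.10 FPKM on 2DC dishes, 17.7 ± 3.15 for 2DF, 26.7 ± 1.64 for 3DF and 13.7 ± 3.15 for 3DF_50. ADAMTS5 (chr14:156126088-156177584, minus strand) was at 39.2, 43.1 and 47.0 FPKM in the 2DC and 38.8, 33.2 and 75.2 in the 2DC_L libraries, at 7.20, 10 and 9.16 with cells on the matrix (2DF) and, with cells inside it, at 18.9, 12.7 and 13.4 in 3DF and 4.50, 4.44 and 7.45 in 3DF_50. Coated dishes were the highest without overlap with the matrices, and 3DF was above 2DF. It fell in 2DF vs. 2DC (-2.29 ± 0.13, adjusted p = 4.18e-05 by edgeR) and in 3DF vs. 2DC (-1.53 ± 0.17, adjusted p = 0.000753 by edgeR), and it was higher in 3DF than in 3DF_50 (1.43 ± 0.23, adjusted p = 0.0361 by edgeR). The difference between 3DF and 2DF was 0.78 ± 0.19, adjusted p = 0.0371 by edgeR, under the fold limit.

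ADAMTS1 lies 67.8 kb from ADAMTS5 on chromosome 14 and showed none of these changes. It ranged from 3.09 to 8.07 FPKM over the libraries, did not pass the test over the 5 conditions (edgeR adjusted p = 0.235), and its highest value was that of 2DC replicate 3. ADAMTS4 (chr13:31782749-31791247, plus strand) was at 4.34, 4.64 and 3.60 FPKM in libraries of 2DC and 3.58, 3.52 and 3.08 in those of 2DC_L, against 2.46, 3.79 and 2.92 in 2DF, 3.14, 4.81 and 3.84 in 3DF and 1.75, 1.38 and 2.25 at the lower density of 3DF_50. Its 3DF_50 libraries were below all others, and it was a DEG in 3DF_50 vs. 2DC (-1.22 ± 0.19, adjusted p = 0.00110 by edgeR), though not with scaling by library size only. ADAMTS9, a versican-cutting enzyme (chr9:31611708-31784188, minus strand), was at 1.28, 1.11 and 0.977 FPKM in 3DF and 0.609, 0.367 and 0.817 in 3DF_50, compared with 0.956, 1.54 and 0.970 in 2DF, 1.70, 1.43 and 1.65 on the dishes of 2DC and 1.39, 1.52 and 2.13 on those of 2DC_L. Its 3DF_50 libraries were again the lowest, with -1.41 ± 0.25, adjusted p = 0.00239 by edgeR in 3DF_50 vs. 2DC.

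ADAMTS15 (chr1:86179155-86204517, minus strand) went the other way. It was at 0.120, 0.114 and 0.235 FPKM in the 2DC and 0.139, 0.220 and 0.182 in the 2DC_L libraries, at 0.0862, 0.237 and 0.0964 with cells on the matrix (2DF) and, with cells inside it, at 0.508, 0.785 and 1.09 in 3DF and 2.15, 1.34 and 1.28 in 3DF_50. All 3D libraries were above all 2D libraries and those of 3DF_50 above those of 3DF. It rose in 3DF vs. 2DC (2.34 ± 0.40, adjusted p = 0.00623 by edgeR), in 3DF vs. 2DF (2.49 ± 0.44, adjusted p = 0.00967 by edgeR; lost without 2DF replicate 1) and in 3DF_50 vs. 2DC (3.35 ± 0.34, adjusted p = 0.000116 by edgeR). The log2 fold change for 3DF vs. 3DF_50 was -1.03 ± 0.31, adjusted p = 0.132 by edgeR. The epithelial markers were also higher in 3DF (7.54 to 12.8 FPKM) than in 2DC (0.138 to 1.12), with 0.0373 to 5.83 in 3DF_50, and their part in this result was not tested. The gene model lies inside that of GNG10 on the same strand, which reached 4022 counts, and how fragments shared by both were counted is not given in the sources used here. ADAMTS8, 21.1 kb away, lies in the GNG10 model on the opposite strand and had at most 4 counts in a library, and ADAMTS20 had at most 3.

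**Figure D5:**
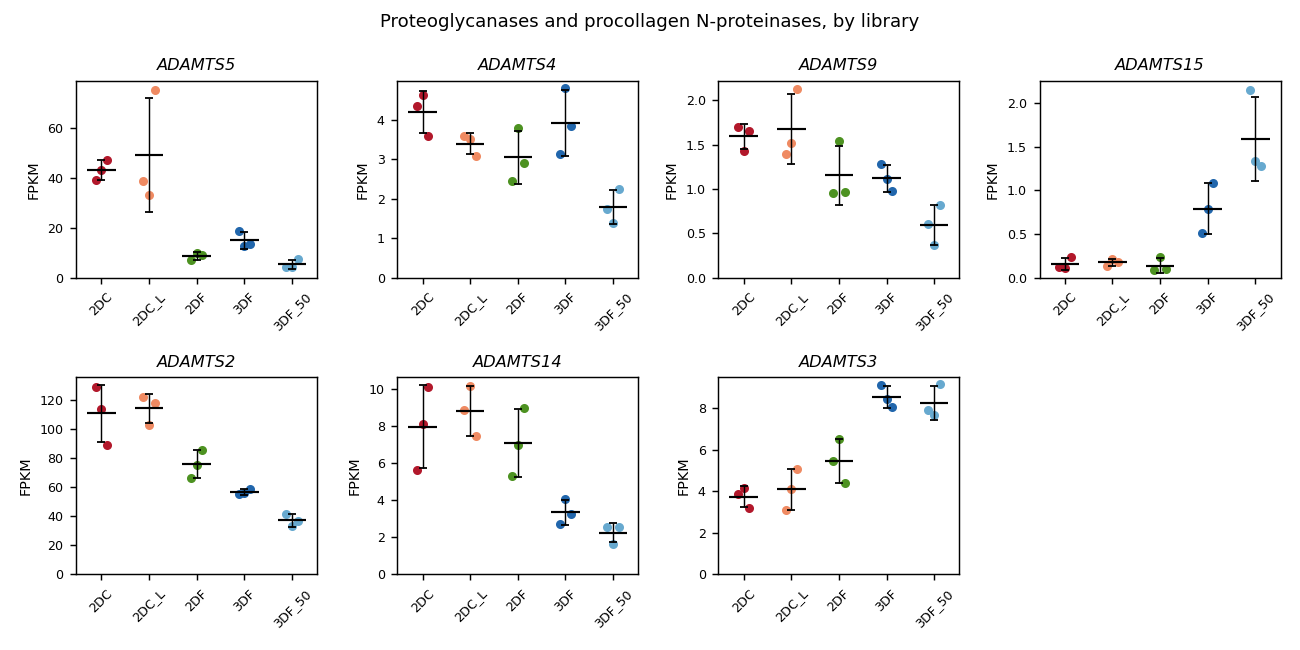
FPKM of the proteoglycanases ADAMTS5, ADAMTS4, ADAMTS9 and ADAMTS15 (top) and the procollagen N-proteinases ADAMTS2, ADAMTS14 and ADAMTS3 (bottom), 1 point per library, with the mean (line) and SD (bar) of the 3 libraries of each condition. ADAMTS15 and ADAMTS3 are higher in every 3D library than in any 2D library, whereas ADAMTS2 and ADAMTS14 are lower.

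ADAMTS7 and ADAMTS12, a related pair that cuts cartilage oligomeric matrix protein, also differed in direction. ADAMTS12 (chr11:55258555-55606781, minus strand) was at 11.5, 11 and 12.2 FPKM in libraries of 2DC and 12.9, 10.2 and 12.6 in those of 2DC_L, against 4.23, 4.45 and 5.13 in 2DF, 3.48, 2.31 and 2.11 in 3DF and 0.972, 1.13 and 1.30 at the lower density of 3DF_50. These values fell in steps from coated dishes to 2DF, 3DF and 3DF_50 with no overlap between steps. Against 2DC the log2 fold change was -1.32 ± 0.10, adjusted p = 0.000138 by edgeR for 2DF, -2.14 ± 0.19, adjusted p = 0.000297 by edgeR for 3DF and -3.35 ± 0.11, adjusted p = 9.85e-07 by edgeR for 3DF_50. The 3DF vs. 3DF_50 call (1.19 ± 0.21, adjusted p = 0.0453 by edgeR) held in 1 of 6 tests without 1 library, and with the replicate number as a block it was lost.

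ADAMTS7 (unplaced scaffold, bases 435058 to 474386, plus strand) was at 9.02, 12 and 11.7 FPKM in 3DF and 7.95, 10.4 and 9.5 in 3DF_50, compared with 12.7, 14.3 and 10.7 in 2DF, 6.57, 6.30 and 5.18 on the dishes of 2DC and 6.09, 7.09 and 4.63 on those of 2DC_L. Every matrix library was above every coated library, and within the matrices 3DF overlapped both others while 3DF_50 stayed below 2DF. It rose in 2DF vs. 2DC (1.07 ± 0.13, adjusted p = 0.00134 by edgeR), a call lost without 2DC replicate 3 or 2DF replicate 2 (0.97 in each case). In 3DF vs. 2DC the log2 fold change of 0.85 ± 0.15, adjusted p = 0.00791 by edgeR missed the fold limit under this scaling and passed it when libraries were scaled by size only. Together the pair reached a summed 17.6 ± 0.406 FPKM for 2DC, 17.2 ± 1.47 for 2DF and 13.5 ± 0.923 for 3DF.

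ADAMTS17, in which loss-of-function variants cause a syndrome with short stature and lens defects (unplaced scaffold, bases 352717 to 621746, plus strand), was at 44.5, 31.7 and 18.0 FPKM in the 2DC and 38.2, 26.8 and 29.6 in the 2DC_L libraries, at 17.7, 23.8 and 28.3 with cells on the matrix (2DF) and, with cells inside it, at 10.8, 11.6 and 11.6 in 3DF and 9.47, 7.71 and 6.39 in 3DF_50. The 2D conditions overlapped, with 2DC spread widely, and lay above both 3D conditions. It fell in 3DF vs. 2DC (-1.48 ± 0.28, adjusted p = 0.00958 by edgeR) and in 3DF vs. 2DF (-1.03 ± 0.17, adjusted p = 0.00681 by edgeR), the latter call being lost without 2DF replicate 3 and with scaling by library size only. ADAMTS10, a fibrillin-binding relative linked to Weill-Marchesani syndrome, was at 16.3, 14.8 and 10.9 FPKM in libraries of 2DC and 16.0, 14.9 and 14.8 in those of 2DC_L, against 14.0, 19.9 and 14.8 in 2DF, 8.24, 11.1 and 9.60 in 3DF and 8.74, 7.90 and 9.79 at the lower density of 3DF_50. Its 3D libraries were below those of 2DF, with -0.75 ± 0.17, adjusted p = 0.0318 by edgeR in 3DF vs. 2DF under the fold limit.

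Both members that were DEGs without a mean of 1 FPKM in any condition were ADAMTS genes. ADAMTS6 (chr11:81327330-81645253, minus strand) was at 1.15, 0.796 and 0.784 FPKM in 3DF and 0.235, 0.295 and 0.508 in 3DF_50, compared with 0.779, 0.848 and 0.805 in 2DF, 0.622, 0.858 and 0.694 on the dishes of 2DC and 0.780, 0.569 and 0.905 on those of 2DC_L. The 3DF_50 libraries lay below all others, with -1.05 ± 0.29, adjusted p = 0.0205 by edgeR in 3DF_50 vs. 2DC. That call held in 3 of 6 tests without 1 library, being lost without 2DC replicate 2, 3DF_50 replicate 1 or 3DF_50 replicate 2, and was lost with scaling by library size only and with the prefix block. ADAMTS18, a gene linked to eye development (chr5:31921287-32078218, minus strand), was at 0.185, 0.223 and 0.221 FPKM in the 2DC and 0.315, 0.297 and 0.306 in the 2DC_L libraries, at 0.00999, 0.0396 and 0.0503 with cells on the matrix (2DF) and, with cells inside it, at 0.0349, 0.0155 and 0.0173 in 3DF and 0.00992, 0 and 0 in 3DF_50. It had 87 counts in the 2DC libraries together and 1 in those of 3DF_50. The coated dishes lay above every matrix library, with 31, 28 and 28 counts in 2DC, 1, 4 and 5 in 2DF, and 5, 2 and 2 in 3DF. Since only the coated dishes carried ADAMTS18 through the count filter, its calls are given as a description, and 3DF vs. 2DF was not tested.

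All 3 ADAMTSL genes, whose products are matrix proteins without protease activity, were expressed. ADAMTSL1, or punctin (chr1:35015624-36092394, minus strand), was at 4.70, 5.62 and 6.06 FPKM in libraries of 2DC and 5.84, 5.41 and 4.93 in those of 2DC_L, against 1.01, 1.01 and 1.09 in 2DF, 1.76, 1.5 and 1.43 in 3DF and 0.561, 0.325 and 0.648 at the lower density of 3DF_50. No matrix library reached a coated one, and 3DF was above 2DF and 3DF_50 below it. It fell in 2DF vs. 2DC (-2.39 ± 0.12, adjusted p = 2.63e-05 by edgeR) and in 3DF vs. 2DC (-1.81 ± 0.14, adjusted p = 0.000206 by edgeR), and was higher in 3DF than in 3DF_50 (1.59 ± 0.25, adjusted p = 0.0318 by edgeR). Its model also lies inside that of GNG10 on the same strand.

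ADAMTSL3 (unplaced scaffold, bases 100280 to 510247, plus strand) was at 0.223, 0.487 and 0.165 FPKM in 3DF and 0.128, 0.0645 and 0.237 in 3DF_50, compared with 0.486, 1.51 and 1.46 in 2DF, 0.317, 0.266 and 0.186 on the dishes of 2DC and 0.359, 0.381 and 0.442 on those of 2DC_L. It was highest in 2DF, where replicate 1 was far below the others and reached only the level of 3DF replicate 2. It rose in 2DF vs. 2DC (2.16 ± 0.42, adjusted p = 0.0106 by edgeR) and was lower in 3DF than in 2DF (-1.97 ± 0.48, adjusted p = 0.0402 by edgeR), a call that held in 2 of 6 tests without 1 library and was lost without the same 4 libraries as that of ADAMTS14. ADAMTSL4, which binds fibrillin and is needed to hold the lens in place, ranged from 2.06 to 5.48 FPKM over the libraries and did not pass the test over the 5 conditions (edgeR adjusted p = 0.129).

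In 3DF vs. 3DF_50, cell density in 3D, the DEGs were ADAMTSL1, ADAMTS5, ADAM12, ADAM22 and ADAMTS12. The median log2 fold change was 0.46 over the 28 members tested and 0.01 over all genes. The call count was 0 without 3DF replicate 3, without 3DF_50 replicate 1 and without 3DF_50 replicate 2, fits in which all genes gave 4, 0 and 0 DEGs. DESeq2 called 7 members higher and 1 lower, and over all genes it called 142 higher and 60 lower, against 60 DEGs of all genes in edgeR. Against 2DC the 3DF_50 condition had 16 DEGs among 29 members tested, 2 higher and 14 lower, with ADAMTS18 among the lower. Of all genes 11.6% were DEGs there (4.28% higher, 7.33% lower).

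In 2DC vs. 2DC_L, digestion before lysis against direct lysis, 0 of 29 members tested were DEGs in edgeR and in DESeq2, where 0.265% of all genes were DEGs (0.257% higher, 0.00735% lower), and 3 members, like 5.73% of all genes, had an unadjusted p under the level of 0.05. These were ADAMTS4 (0.30 ± 0.12), ADAMTSL3 (-0.60 ± 0.25) and ADAMTS18 (-0.55 ± 0.23), given as log2 fold change ± SE, and none passed the adjustment. The same comparison changed early response genes, of which 12 of 14 tested rose, with a log2 fold change of 9.66 ± 0.17 for FOS and 7.93 ± 0.18 for EGR1. With 2DC_L in place of 2DC, 2 members were higher and 9 lower in 3DF vs. 2DC_L, where 10.2% of all genes were DEGs (4.24% higher, 5.98% lower). In 2DF vs. 2DC_L 2 were higher and 6 lower, against 7.39% of all genes (2.93% higher, 4.46% lower). In 3DF_50 vs. 2DC_L 2 were higher and 14 lower, against 13.5% of all genes (5.05% higher, 8.47% lower). ADAMTS18 is among the lower members in each comparison of a matrix with 2DC_L. In 3DF_50 vs. 2DF 9 of 27 were DEGs, 1 higher and 8 lower, where 4.45% of all genes were (1.44% higher, 3.01% lower).

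Of 5 inhibitors of these proteases tested, 2 fell past the limits and 0 rose past them in 3DF vs. 2DC, where 7.56% of all genes were DEGs. TIMP3, the tissue inhibitor of metalloproteinases that blocks ADAM17 and the ADAMTS proteoglycanases, was at 121 ± 10.5 FPKM in 3DF and 284 ± 97.2 in 2DC (-1.24 ± 0.22, adjusted p = 0.00797 by edgeR). TIMP1 had a log2 fold change of -2.11 ± 0.15, adjusted p = 0.000159 by edgeR. TIMP2 was higher in 3DF, at 539 ± 49.0 against 271 ± 6.94 FPKM, but its log2 fold change (0.98 ± 0.13, adjusted p = 0.00162 by edgeR) stayed just under the limit and passed it in 2 of 6 tests without 1 library. In 2DF vs. 2DC TIMP2 rose (1.02 ± 0.12, adjusted p = 0.000996 by edgeR), the only DEG of 4 inhibitors tested, where 4.96% of all genes were DEGs. Of 12 matrix substrates and partners 6 fell and 0 rose in 3DF vs. 2DC, among them COL1A1 at 6376 ± 824 FPKM in 3DF and 17749 ± 3361 in 2DC (-1.49 ± 0.21, adjusted p = 0.00249 by edgeR) and VCAN, which encodes versican, at 0.0744 ± 0.00657 and 0.203 ± 0.0653 FPKM (-1.45 ± 0.33, adjusted p = 0.0210 by edgeR). Of 17 shed ligands, receptors and adhesion proteins tested, SDC4 and TNFRSF1B rose and SDC1 and NRG1 fell in that comparison. Of 15 genes for maturation, trafficking and clearance 1 was a DEG, PCSK6, a share no larger than that of all genes.

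The other 16 members had a mean under 1 FPKM in every condition, ADAMTS6 and ADAMTS18 included. ADAMTS16 was at 0.519 to 0.767 FPKM by condition mean and did not pass the test over the 5 conditions, and neither did ADAM18 or ADAM23. ADAMTS19, ADAM21, ADAM7, ADAM11, ADAMTS8, ADAM28 and ADAMTS13, the protease of von Willebrand factor, had at most 9 counts in any library. ADAMDEC1, a soluble decysin, had 4 counts in all and ADAMTS20 had 6. ADAM6 and ADAM30 had 0 counts in all 15 libraries, which allows at most 0.0415 to 0.0736 FPKM for ADAM6 and 0.0410 to 0.0728 for ADAM30 by a floor of 3 counts per library, for counting error only. The models of ADAM9, ADAMTS9, ADAMTS19 and ADAMTSL4 also overlap another entry with more than 3 counts in a library. That entry reached at most 32 counts for ADAM9, 27 for ADAMTSL4, 13 for ADAMTS19 and 150 for ADAMTS9, and for ADAM9 and ADAMTS9 it lies on the opposite strand.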

How the data were processed

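The authors aligned reads to the oryCun2 rabbit genome with HISAT2 and counted them per gene with featureCounts. The deposited counts are whole fragments per gene, not normalized. The deposited FPKM are these counts after scaling by gene length and a divisor for each library, which is not its summed counts. The divisor was 17645323 for 3DF_50 replicate 1, whose counts summed to 14626982. For 2DC replicate 1 it was 29383644, with summed counts of 31804255. Levels, sums and shares in FPKM therefore do not match the setting that scales by library size only. Whether counting used strand is not given in the sources used here. FPKM served for levels and counts for tests. All members and gene lists were chosen with earlier results of these data known. Each pair of conditions was fitted on all genes under R 4.3.3 and edgeR 4.0.16. Genes were kept by filterByExpr at its minimum count of 10, libraries were scaled by TMM, and the quasi-likelihood test, which is two-sided, was adjusted by Benjamini-Hochberg over all genes tested. A single model over the 5 conditions gave the test for any difference. The thresholds were those of the study's methods. The tests were checked on simulated data. Values were printed in every library for members that were DEGs in any comparison or reached a mean of 10 FPKM, and other members by range and count, and list genes only as DEGs or as TIMP3, VCAN, COL1A1, FOS and EGR1. With 3 libraries a condition, the p-values rest on the spread between these libraries, which edgeR moderates across genes. Whether that spread covers variation between rabbits cannot be told. The alternatives were DESeq2 1.42.0, its size factors in edgeR, library size only, no count filter, a fit of all 5 conditions, blocks by replicate number or by library-name prefix, no fold limit, other FPKM limits and leaving out each library. Libraries of 1 condition differed beyond counting error, with a chi-square of 16.0 to 82.9 per gene. Sequencing depth limits statements on members with few counts. Protein and promoter sequences are not used here.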

Additional observations from a re-analysis of the deposited data

How the results depend on the processing

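The 44 calls of members in the 3 comparisons of 2DC, 2DF and 3DF and in 3DF vs. 3DF_50, 2DC vs. 2DC_L and 3DF_50 vs. 2DC were recomputed in 572 fits, of which 506 kept the call, 66 kept the direction without the call and 0 turned it. Of the losses 38 came from leaving out 1 library and 21 from the block by library-name prefix. With that prefix as a block the DEG count was 0 in 2DF against each coated dish, in 3DF vs. 2DF and in 3DF vs. 3DF_50, and 5 in 3DF_50 vs. 2DF, while all genes gave 16 DEGs in 2DF vs. 2DC, 87 in 2DF vs. 2DC_L, 4 in 3DF vs. 2DF, 10 in 3DF vs. 3DF_50 and 236 in 3DF_50 vs. 2DF. Of the 2DF libraries 2 have a prefix found in no other condition, as has 3DF replicate 3. The block fits each such library by its own term, so 2DF was estimated from replicate 1 alone and 3DF from replicates 1 and 2. Counts for 2DF under this block therefore cannot decide whether the calls depend on the prefix. The meaning of the prefix is not given in the sources used here. Without the fold limit the counts were 11 in 3DF vs. 2DF, 15 in 3DF_50 vs. 2DF and 17 in 3DF vs. 2DC_L, and the matching counts of all genes were not computed. DESeq2 gave 8 in 3DF vs. 3DF_50, where it gave 202 DEGs over all genes, and the cause was not tested. Leaving out 1 library gave 2 to 5 in 3DF vs. 2DF, with 2 without 2DF replicate 3 and 3 without 3DF replicate 3, and 0 to 5 in 3DF vs. 3DF_50, with 0 without 3DF replicate 3, 3DF_50 replicate 1 or 3DF_50 replicate 2. In 3DF vs. 2DF all genes gave 368 DEGs without 2DF replicate 3 and 376 without 3DF replicate 3. The replicate block left 10, 8 and 5 DEGs in the 3 comparisons of 2DC, 2DF and 3DF and 4 in 3DF vs. 3DF_50, where ADAMTS12 was lost. All genes gave 1006, 628, 427 and 86 DEGs in these fits. Same-numbered libraries did not deviate together in every pair (correlations of -0.18 to 0.32), so the numbers were not taken as pairs. Numbers and prefixes mostly do not line up, so this check cannot show whether libraries of 1 prefix deviate together. Where both were shared, it gave 0.32 and 0.064 for replicates 1 and 2 of 2DC and 2DC_L and 0.26 for replicate 3 of 3DF_50 and 2DC_L. The log2 fold change of ADAMTS1 in 2DC vs. 2DC_L, 0.50, ranged from -0.012 without 2DC replicate 3 to 0.74 without 2DC replicate 1. Scaling by library size only shifted the median over all genes by -0.16 in 3DF vs. 3DF_50 to 0.36 in 3DF_50 vs. 2DC_L. Limits of 0.5 and 2 FPKM gave 27 and 20 expressed members. The test over the 5 conditions gave 21 to 23 members when 1 library was left out.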

Other observations

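Outside the symbols above, 34 further entries of the table were described as members of this family, and 2 of them reached 1 FPKM. Both were described as ADAMTSL2, a fibrillin-binding ADAMTS-like protein, and lie on unplaced scaffolds, LOC103347592 and LOC103347347. They were chosen after their values were seen. Their mean FPKM was 24.1 and 26.3 in 2DF, 5.20 and 5.78 in 2DC, 5.46 and 5.62 in 2DC_L, 4.85 and 4.31 in 3DF and 4.13 and 4.16 in 3DF_50. LOC103347592 had a log2 fold change of 2.20 ± 0.33, adjusted p = 0.00355 by edgeR in 2DF vs. 2DC and -2.31 ± 0.40, adjusted p = 0.00875 by edgeR in 3DF vs. 2DF. LOC103347347 had 2.17 ± 0.27, adjusted p = 0.00149 by edgeR and -2.61 ± 0.22, adjusted p = 0.000482 by edgeR, and these calls held in 6 of 6 tests without 1 library for each entry. Whether the entries are copies of 1 gene that share fragments is not given in the sources used here.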
